A study of Sus scrofa with 17 samples.

Results

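The genes described here carry the excitation-contraction and calcium handling machinery of skeletal muscle, and 10 were named for it: RYR1, CACNA1S, ATP2A1, CASQ1, SLN, PLN, JPH1, TRDN, RCAN1 and STIM1. They were found by symbol, in a list put together with earlier results of these data known. Of the 31908 genes counted, 8 of these 10 had a row that carried the symbol, and all 8 passed the filter on low counts, as did 14203 genes in total. RYR1 and PLN had no row of their own in the annotation used for counting, so no level is given for them.

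The libraries came from longissimus muscle, 1 for each piglet: 6 piglets on the control diet, 6 on UL and 5 on ULU. All were Large White × Duroc males, 28 days old at the start, kept in individual cages and pair-fed for 2 weeks after 5 days of adaptation. Control piglets ate a wheat, maize and soybean meal diet without seaweed. UL piglets ate a diet in which 7% Ulva lactuca, a green seaweed, took the place of part of the control diet, and ULU piglets ate that UL diet with 0.01% ulvan lyase, a recombinant enzyme that cuts the seaweed's cell wall polysaccharide ulvan. There was no diet with the enzyme and without the seaweed, so an effect of the enzyme by itself cannot be read from these groups. The libraries held 16137365 to 26546810 reads assigned to genes. Levels are given as CPM, the counts of a gene per 1e6 reads after TMM scaling, a correction for libraries in which a few genes take up many of the reads. ULU piglet 43 had the lowest scaling factor, 0.765, while the other 16 were at least 0.925, and this piglet was the highest of all 17 for 6 of the 8 measured members. For differences that it moved by over 1.5 times, the value without it is given as well.

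Skeletal muscle contracts when an action potential reaches the transverse tubule, where the voltage sensor CaV1.1 (CACNA1S) opens the ryanodine receptor (RYR1) of the facing sarcoplasmic reticulum. Junctophilins (JPH1) hold the membranes of this junction, the triad, together, triadin (TRDN) anchors the calcium-binding protein calsequestrin (CASQ1) near the release channel, and the SERCA pumps (ATP2A1 in fast fibres, ATP2A2 in slow fibres) return calcium to the lumen. Sarcolipin (SLN) and phospholamban (PLN) restrain the pumps, STIM1 senses the lumen's calcium and opens entry from outside, and RCAN1 restrains calcineurin, the calcium-activated phosphatase that signals to the nucleus.

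The measured members lie on 6 chromosomes of the pig assembly Sscrofa11.1. CACNA1S (ENSSSCG00000024784) spans chromosome 10 from 23502898 to 23568032 on the minus strand, and ATP2A1 (ENSSSCG00000007805) chromosome 3 from 18547976 to 18568313 on the plus strand. CASQ1 (ENSSSCG00000006390) and JPH1 (ENSSSCG00000006174) are both on chromosome 4, from 90276754 to 90288011 on the minus strand and from 61628299 to 61716546 on the plus strand. SLN (ENSSSCG00000029651) and STIM1 (ENSSSCG00000014792) are both on the minus strand of chromosome 9, from 36232968 to 36242405 and from 6066617 to 6270575. TRDN (ENSSSCG00000027613) spans chromosome 1 from 39180879 to 39567240 on the plus strand, and RCAN1 (ENSSSCG00000012050) chromosome 13 from 198102098 to 198205629 on the minus strand. Reads were counted over the exons of each gene without regard to strand. The ATP2A1 exons share 50 of 4196 bases with RABEP2, and no other member shares an exonic base with another gene.

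Per length of exon, sarcolipin was the most abundant member and STIM1 the least. Over all 17 piglets, the mean level was 5230.1 ± 1240.0 CPM per kb (SD, n = 17) for SLN, 2520.3 ± 451 for CASQ1, 989.7 ± 245 for ATP2A1, 279 ± 58.4 for TRDN, 139.6 ± 33.9 for JPH1, 27.3 ± 8.18 for CACNA1S, 8.08 ± 1.39 for RCAN1 and 4.46 ± 0.665 for STIM1. Neighbours in this order did not overlap over the 17 piglets, except TRDN and JPH1: the lowest TRDN level was 179.9 CPM per kb and the highest JPH1 level 212. RCAN1 and STIM1 came within a few hundredths, with 5.87 as the lowest and 5.85 as the highest level. The slow-fibre counterparts were far below the fast-fibre genes in every piglet, with 53.1 ± 14.5 CPM per kb (SD, n = 17) for ATP2A2 against ATP2A1 and 18.8 ± 9.64 for CASQ2 against CASQ1.

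**Figure D1:**
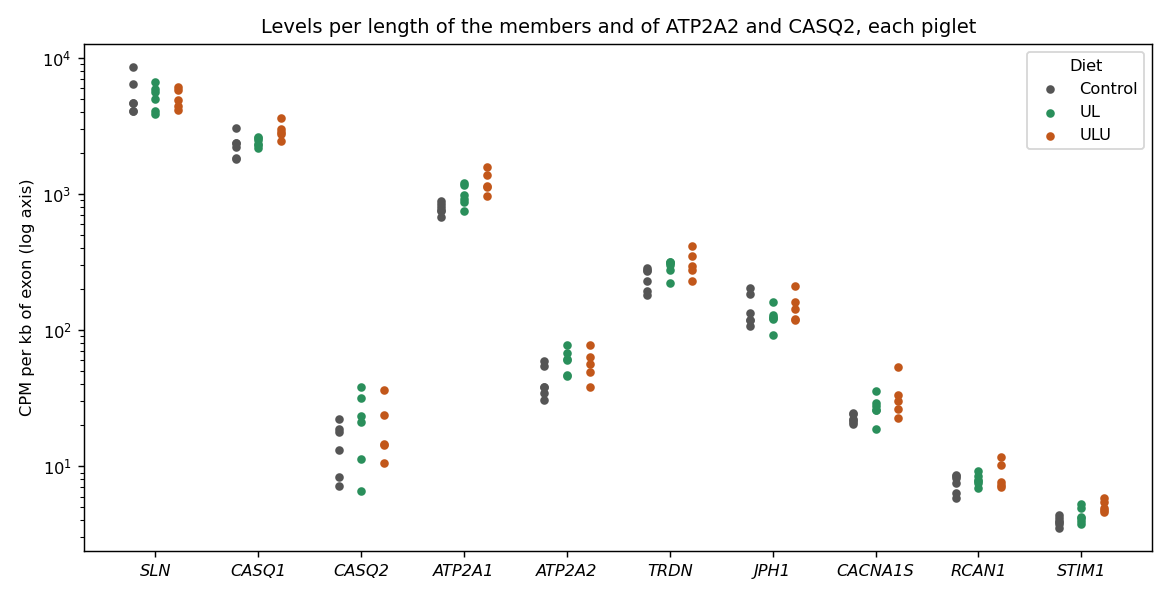
Level of each gene in each piglet, in CPM per kb of exon on a log axis, coloured by diet, for the 8 measured members and the slow-fibre genes ATP2A2 and CASQ2. SLN, between 3892 and 8561, stays above CASQ1, and ATP2A1 and CASQ1 stay above their slow-fibre counterparts in each piglet.

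Of the members, ATP2A1, the calcium pump of fast fibres, rose in ULU vs control. It was 1.57-fold higher, and its ULU and control piglets did not overlap. None of the other 7 measured members passed the test in ULU vs control, and no member passed in UL vs control or in ULU vs UL. In a piece of muscle, more cells of a type and more RNA per cell cannot be told apart, and this holds for every difference below. A gene is called where its adjusted p (edgeR quasi-likelihood F test, Benjamini-Hochberg adjustment over the 14203 genes tested) is under 0.05.

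The question of UL vs control is what the seaweed alone changed. By edgeR, 0 of 8 members were called, where 0% of all genes tested were called. At an unadjusted p under 0.05 there was 1 member, ATP2A1, which was higher, where 10.8% of all genes tested passed that limit and 5.84% were higher. DESeq2 called 0 members in either of its fits. Members above 0 numbered 6 of 8, with SLN and JPH1 below, with a median log2(fold change) of 0.13 over the 8 and of 0.00 over all genes tested. Of the genes tested, 49.5% were above 0. UL and control overlapped for all 8 members, where 0.852% of all genes did not overlap and 0.493% were higher without overlap.

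ULU vs control asks what the seaweed with the enzyme changed. Here 1 of 8 members was called, ATP2A1, where 2.98% of all genes tested were called and 1.99% were called higher. Both DESeq2 fits called 3 members, CACNA1S, ATP2A1 and STIM1. DESeq2 called 4.15% of all genes with all 17 libraries and 3.34% with these 2 diets. All DESeq2 shares, here and below, are over every gene with a read in the fit, 25698 and 24740 in this comparison. That base is wider than the 14203 genes of the edgeR fit, which lowers the share, so the DESeq2 and edgeR shares are not on a like base. The edgeR fit on these 2 diets alone called 0 members, where it called 0.821% of all genes. At an unadjusted p under 0.05, 5 members were higher and 0 lower, where 10.1% of all genes tested were higher at that limit. Members above 0 numbered 7 of 8, where 47.0% of all genes were above 0, and the median log2(fold change) was 0.37 over the members and -0.03 over all genes. ULU and control did not overlap for 2 members, ATP2A1 and STIM1, both higher in ULU, where 3.39% of all genes did not overlap and 2.30% were higher without overlap. Without ULU piglet 43, 0 members were called, where 1.02% of all genes were. The study's methods, which used DESeq2, add a log2(fold change) of at least 1. With that limit put on the edgeR fit used here, no member was called, against 0.415% of all genes.

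The comparison of ULU with UL isolates the enzyme on top of the seaweed. By edgeR, 0 of 8 members were called, where 0.0352% of all genes tested were called. At an unadjusted p under 0.05, 2 members were higher, ATP2A1 and STIM1, where 10.8% of all genes passed and 6.16% were higher, and DESeq2 called 0 members in either fit. ULU and UL overlapped for all 8 members, where 1.75% of all genes did not overlap and 1.09% were higher without overlap. Above 0 were 7 of 8 members, where 47.0% of all genes were, and the median log2(fold change) was 0.25 over the members and -0.02 over all genes tested. UL vs control and ULU vs control share the control piglets, and each comparison with ULU shares the ULU piglets, so the 3 comparisons are not separate evidence for a gene.

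**Figure D2:**
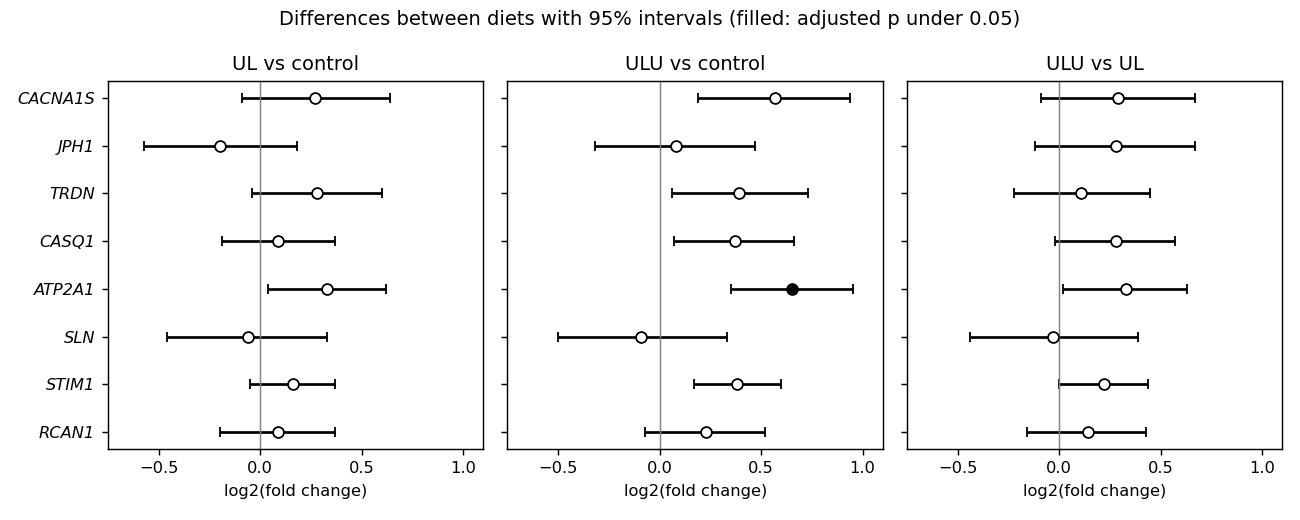
Difference of each measured member in the 3 comparisons, as log2(fold change) with its 95% interval, with a filled point where the adjusted p was under 0.05. Only ATP2A1 in ULU vs control is filled, at 0.65 with an interval from 0.35 to 0.95, and SLN lies close to 0 in each comparison.

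Among the release genes, CACNA1S, the voltage sensor, had a level of 168 CPM at the lowest, 181 at the median and 203 at the highest of the control piglets. In UL it was 155 at the lowest, 219.6 at the median and 294 at the highest. In ULU piglets 40 to 44 it was 217, 249, 185, 441 and 274 CPM. Above the highest control were 5 of 6 UL and 4 of 5 ULU piglets, and piglet 43 stood far above the rest. The mean was 185 ± 13.9 CPM in the control piglets (SD, n = 6), 223 ± 45.4 CPM in the UL piglets (SD, n = 6) and 273 ± 99.7 CPM in the ULU piglets (SD, n = 5), with a larger SD in UL and ULU than in control. On the log2 scale, CACNA1S was 0.57 ± 0.18 (SE) higher in ULU vs control, with an edgeR adjusted p of 0.0884. Without ULU piglet 43 it was 0.32, with an edgeR adjusted p of 0.274, and over all settings tried the adjusted p ran from 0.0349 to 0.274. In UL vs control it was 0.27 ± 0.17 (SE), and in ULU vs UL 0.29 ± 0.18, or 0.05 without ULU piglet 43.

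JPH1, which ties the sarcoplasmic reticulum to the transverse tubule, was 460.3 CPM at the lowest, 537 at the median and 873 at the highest in control. In UL the same values were 397, 527 and 695 CPM, and ULU piglets 40 to 44 had 509, 693, 519.7, 910.1 and 617 CPM. The groups overlapped almost entirely. JPH1 had a log2(fold change) of -0.20 ± 0.18 (SE) in UL vs control, 0.08 ± 0.19 in ULU vs control and 0.28 ± 0.19 in ULU vs UL, or 0.12 in ULU vs UL without ULU piglet 43. The interval of the ULU vs control difference ran from -0.32 to 0.47, and without ULU piglet 43 the difference was -0.08.

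TRDN, the anchor of calsequestrin at the release channel, was 856 CPM at the lowest, 1187 at the median and 1355 at the highest in control. In UL it was 1049, 1451 and 1520.3 CPM, and in ULU piglets 40 to 44 it was 1678, 1419, 1308, 1975 and 1096 CPM. Among UL and ULU, 4 of 6 and 3 of 5 piglets were above the highest control piglet. TRDN had a log2(fold change) of 0.28 ± 0.15 (SE) in UL vs control, with an edgeR adjusted p of 0.526, and 0.39 ± 0.16 in ULU vs control, with an edgeR adjusted p of 0.183. The ULU vs UL difference was 0.11 ± 0.16 (SE), and 0.00 without ULU piglet 43.

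CASQ1, the main calcium buffer of the lumen in fast fibres, was 4556 CPM at the lowest, 5808 at the median and 7778 at the highest in control. UL ran from 5557 over a median of 6133 to 6705 CPM, and ULU piglets 40 to 44 had 7591, 7029, 6188, 9173 and 7296 CPM. Control piglet 21 held the control maximum, and only ULU piglet 43 was above it, while 4 of 5 ULU piglets were above the highest UL piglet. For CASQ1 the log2(fold change) was 0.09 ± 0.13 (SE) in UL vs control, 0.37 ± 0.14 in ULU vs control, with an edgeR adjusted p of 0.155, and 0.28 ± 0.14 in ULU vs UL, with an edgeR adjusted p of 0.489. Its slow-fibre relative CASQ2 varied much more between piglets, from 46.0 to 143 CPM in control, from 42.4 to 243 in UL and from 67.4 to 231 in ULU. CASQ2 differed by 0.60 ± 0.38 (SE) in UL vs control and by 0.45 ± 0.39 in ULU vs control on the log2 scale, and neither passed the test. The former was 0.37 without UL piglet 29 and the latter 0.12 without ULU piglet 42.

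**Figure D3:**
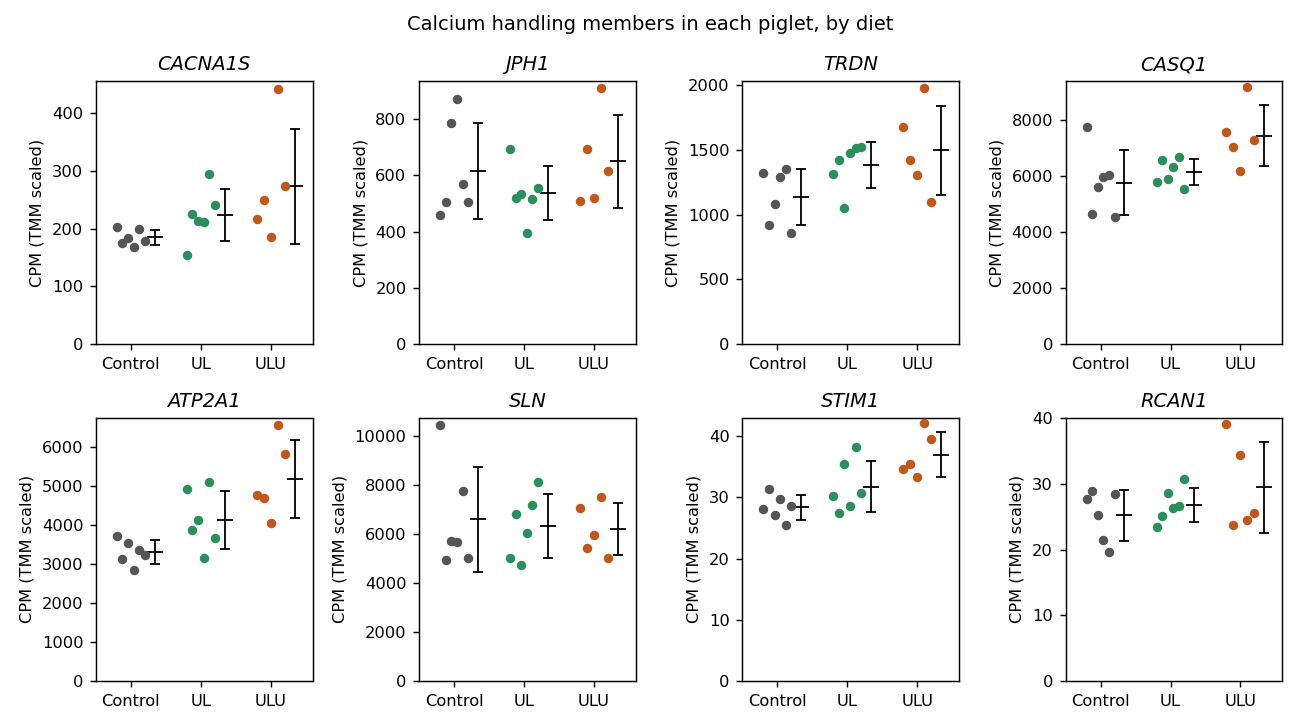
CPM of the 8 measured members in each piglet by diet, with the mean and SD of the group beside the points. For ATP2A1 and STIM1 the ULU points lie above every control point, and ULU piglet 43 is the highest point for CACNA1S, JPH1, TRDN, CASQ1, ATP2A1 and STIM1.

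For calcium uptake, ATP2A1 was 2839.6 CPM at the lowest, 3292 at the median and 3719 at the highest of the 6 control piglets. In UL the lowest was 3158, the median 3998 and the highest 5096 CPM. ULU piglets 40 to 44 had 4782, 4708, 4061, 6570.1 and 5816 CPM. All 5 ULU piglets were above the highest control, 4 of 6 UL piglets were as well, and 2 of 5 ULU piglets were above the highest UL piglet. The mean was 3304 ± 313 CPM in the control piglets (SD, n = 6), 4139.8 ± 747 CPM in the UL piglets (SD, n = 6) and 5188 ± 996 CPM in the ULU piglets (SD, n = 5). ATP2A1 was 0.65 ± 0.14 (SE) higher on the log2 scale in ULU vs control, with an edgeR adjusted p of 0.0236. The steps from control to UL and from UL to ULU were of the same size, 0.33 ± 0.14 (SE) each, and neither passed the test, with edgeR adjusted p-values of 0.409 and 0.432. The call in ULU vs control was lost without control piglet 24, ULU piglet 43 or ULU piglet 44, with edgeR adjusted p-values of 0.0511, 0.0664 and 0.0517, and in the edgeR fit on these 2 diets alone, at 0.0526. Its log2(fold change) was between 0.55 and 0.73 in those fits and all others, and the adjusted p between 0.000294 and 0.0664.

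ATP2A2, the pump of slow fibres, was 171 CPM at the lowest, 213 at the median and 334 at the highest in control. UL had 256, 342 and 438 CPM, and ULU piglets 40 to 44 had 277, 436, 214, 318 and 356 CPM. It was 0.50 ± 0.19 (SE) higher on the log2 scale in UL vs control and 0.43 ± 0.20 higher in ULU vs control, with edgeR adjusted p-values of 0.342 and 0.242. The difference in ULU vs UL was -0.07 ± 0.20 (SE).

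Sarcolipin, the small membrane protein that restrains the pump, had levels that overlapped between the diets. SLN was 4937 CPM at the lowest, 5686 at the median and 10428 at the highest in control, 4740.3, 6414 and 8116 CPM in UL, and 7053, 5423, 5947, 7495 and 5013 CPM in ULU piglets 40 to 44. The highest level of all belonged to control piglet 21. SLN differed on the log2 scale by -0.06 ± 0.19 (SE) in UL vs control, -0.09 ± 0.20 in ULU vs control and -0.03 ± 0.20 in ULU vs UL. The interval in ULU vs control ran from -0.50 to 0.33, and in the same comparison the interval of ATP2A1 began at 0.35; the difference between the genes was not tested. Without control piglet 21 the SLN value in ULU vs control was 0.09, and without ULU piglet 43 it was -0.17 there and -0.10 in ULU vs UL. The ratio of SLN to ATP2A1 per length was 6.80 ± 1.74 in the control piglets (SD, n = 6), 5.43 ± 1.60 in the UL piglets (SD, n = 6) and 4.20 ± 0.885 in the ULU piglets (SD, n = 5). It ran from 5.34 to 9.66 in control, from 3.50 to 7.63 in UL and from 2.97 to 5.08 in ULU. Control and ULU did not overlap, as was so for ATP2A1 alone, whose same values are the denominator. No test was run on this ratio.

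STIM1, the sensor of store-operated calcium entry, was 25.5 CPM at the lowest, 28.3 at the median and 31.4 at the highest in control. UL ran from 27.4 over 30.5 to 38.2 CPM, and ULU piglets 40 to 44 had 34.6, 35.4, 33.3, 42.2 and 39.6 CPM. All 5 ULU piglets were above the highest control, and 2 of 5 were above the highest UL piglet. The mean was 28.4 ± 2.09 CPM in the control piglets (SD, n = 6), 31.8 ± 4.19 CPM in the UL piglets (SD, n = 6) and 37.0 ± 3.73 CPM in the ULU piglets (SD, n = 5). STIM1 was 0.38 ± 0.10 (SE) higher on the log2 scale in ULU vs control, 1.30-fold, with an edgeR adjusted p of 0.0507, which misses the threshold. It passed with RLE scaling, with a filter of 1 CPM and in both DESeq2 fits, and in 2 of the 17 fits that left out a piglet. Over all settings the adjusted p ran from 0.00997 to 0.138. In UL vs control the log2(fold change) was 0.16 ± 0.10 (SE) and in ULU vs UL 0.22 ± 0.10.

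RCAN1, the inhibitor of calcineurin, was 19.7 CPM at the lowest, 26.5 at the median and 28.9 at the highest in control, and 23.4, 26.5 and 30.7 CPM in UL. ULU piglets 40 to 44 had 39.1, 23.8, 34.4, 24.5 and 25.5 CPM. Piglets 40 and 42 were above all others and the other ULU piglets lay within the control range. RCAN1 differed by 0.09 ± 0.14 (SE) on the log2 scale in UL vs control, 0.23 ± 0.14 in ULU vs control and 0.14 ± 0.14 in ULU vs UL, with edgeR adjusted p-values from 0.413 to 0.863. Without ULU piglet 40 RCAN1 differed by 0.10 in ULU vs control and by 0.02 in ULU vs UL.

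Other genes of calcium handling were listed in 6 groups by function, 79 in all, of which 75 had a row and 74 were tested. These lists too were put together with earlier results known, so their counts are a description beside the share over all genes. In ULU vs control, 11 of the 74 (14.9%) were called, all higher, where 1.99% of all genes were called higher. ULU and control did not overlap for 14 of the 74, all higher, where 2.30% of all genes were higher without overlap. Without ULU piglet 43 the count fell from 11 to 6, and the 5 that were lost were MTM1, PPP3CA, CAMK2B, CAMK2G and SCN4A. Calls over all genes fell as well, from 2.98% with this piglet to 1.02% without it. The edgeR fit on these 2 diets alone called 4, CACNB1, FKBP1A, SRL and KCNJ11, where it called 0.821% of all genes. The median log2(fold change) was 0.26, with 55 above 0, where 47.0% of all genes were above 0. In UL vs control 0 of 74 were called by edgeR, and 13 were higher and 0 lower at an unadjusted p under 0.05, where 5.84% of all genes were higher. DESeq2 called 0 with all 17 libraries and 2 with the 2 diets alone, where it called 0.595% and 0.591% of all genes. In ULU vs UL 0 were called by edgeR, and 15 were higher and 2 lower at an unadjusted p under 0.05, where 6.16% of all genes were higher. There DESeq2 called 5 and 6, against 0.965% and 0.935% of all genes.

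In the list of the triad and calcium release, 4 of 19 tested genes rose in ULU vs control, where 1.99% of all genes did. They were CACNB1, the beta subunit of CaV1.1 (154 ± 25.6 CPM in control, n = 6, and 237 ± 27.8 in ULU, n = 5, SD; log2(fold change) 0.62 ± 0.11, SE, edgeR adjusted p 0.00898), FKBP1A, which binds the ryanodine receptor (0.63 ± 0.12, edgeR adjusted p 0.0123), BIN1, which shapes the transverse tubule (0.63 ± 0.13, edgeR adjusted p 0.0159), and MTM1, the phosphoinositide phosphatase myotubularin (0.69 ± 0.14, edgeR adjusted p 0.0171). The list's median was 0.39, with 17 of 19 above 0. ULU and control did not overlap for 6 of the 19, all higher, where 2.30% of all genes were higher without overlap. The 4 called genes are among the 6, which follows largely from their being called on the same values. The edgeR fit on these 2 diets alone called CACNB1 and FKBP1A but not BIN1 or MTM1.

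In the list of pumps, exchangers and lumenal proteins, 1 of 14 rose in ULU vs control, where 1.99% of all genes did: SRL, sarcalumenin, a calcium-binding glycoprotein of the sarcoplasmic reticulum. SRL was 287 ± 34.1 CPM in the control piglets (SD, n = 6), 379 ± 67.8 CPM in the UL piglets (SD, n = 6) and 478 ± 61.5 CPM in the ULU piglets (SD, n = 5). SRL was 0.74 ± 0.13 (SE) higher on the log2 scale in ULU vs control, with an edgeR adjusted p of 0.00836. The list's median was 0.31, with 9 of 14 above 0. The list also holds calcium-binding proteins that are not pumps, exchangers or lumenal proteins: TNNC1 (0.67 ± 0.24, SE), TNNC2 (0.46 ± 0.20) and PVALB (-0.27 ± 0.33), none of them called. TNNC1 and TNNC2 are counted again below, as a slow-fibre and a fast-fibre marker.

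In the list of calcineurin and calmodulin-dependent kinases, 4 of 19 rose in ULU vs control, where 1.99% of all genes did. PPP3CA, a catalytic subunit of calcineurin, was 231 ± 19.8 CPM in the control piglets (SD, n = 6) and 329 ± 48.9 CPM in the ULU piglets (SD, n = 5), so that it was higher by 0.51 ± 0.11 (SE) on the log2 scale with an edgeR adjusted p of 0.0193. CAMK2A rose by 0.66 ± 0.14 (SE) and CAMK2G by 0.57 ± 0.14 on the log2 scale, with edgeR adjusted p-values of 0.0177 and 0.0361. The fourth was CAMK2B, with an edgeR adjusted p of 0.0485. Other calcineurin and kinase genes of the list were not called: PPP3CB differed by 0.14 ± 0.11 (SE), PPP3R1 by -0.12 ± 0.14 and CAMK2D by 0.17 ± 0.15, and PPP3CC had no row. In the 17 fits that left out a piglet, CAMK2A was called in 17, PPP3CA in 15, CAMK2G in 10 and CAMK2B in 4, and the edgeR fit on these 2 diets alone called 0 of the list. The list's median was 0.28, with 15 of 19 above 0.

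Of the 7 tested genes of membrane excitation, 2 rose in ULU vs control, where 1.99% of all genes did. SCN4A, the voltage-gated sodium channel of skeletal muscle, was 34.2 ± 2.70 CPM in the control piglets (SD, n = 6) and 51.0 ± 13.3 CPM in the ULU piglets (SD, n = 5), so that it was higher by 0.58 ± 0.15 (SE) on the log2 scale with an edgeR adjusted p of 0.0400. KCNJ11, the pore of the ATP-sensitive potassium channel, was 22.0 ± 3.21 CPM in the control piglets (SD, n = 6), 22.8 ± 4.02 CPM in the UL piglets (SD, n = 6) and 35.5 ± 4.77 CPM in the ULU piglets (SD, n = 5). In ULU vs control KCNJ11 was 0.69 ± 0.13 (SE) higher on the log2 scale, with an edgeR adjusted p of 0.0122. In the fits that left out a piglet, KCNJ11 was called in 17 of 17 and SCN4A in 11 of 17, and the edgeR fit on these 2 diets alone called KCNJ11. The list's median was 0.22.

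The lists of store-operated entry and of mitochondrial calcium uptake had no called gene by edgeR in ULU vs control. In the former, 0 of 6 tested genes passed an unadjusted p under 0.05, where 18.9% of all genes did. Of these 6, 1 was above 0, where 47.0% of all genes were, the median was -0.21, and DESeq2 called 0. STIM1, higher in ULU, is counted with the members and not in this list. Mean counts were low for ORAI1, ORAI2, ORAI3, STIM2 and TRPC1, at 27.4 to 198.2 reads, against 1601.8 for SARAF. In the list of mitochondrial uptake, 3 of 9 were higher and 0 lower at an unadjusted p under 0.05, where 10.1% of all genes were higher. The median there was 0.18. DESeq2 called 2 of the 9 in each fit, where it called 4.15% of all genes with all 17 libraries and 3.34% with the 2 diets.

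**Figure D4:**
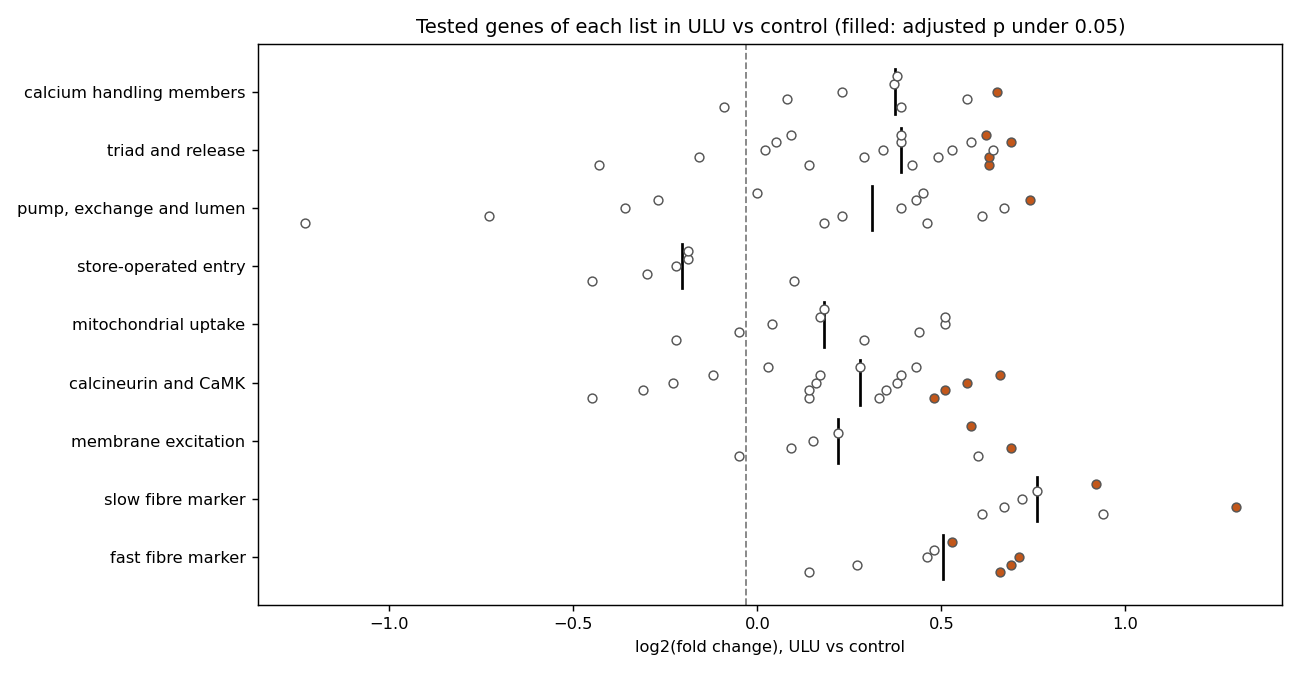
Each tested gene of the members, the 6 calcium handling lists and the fibre type markers, placed by its difference between ULU and control as log2(fold change), with filled points at an adjusted p under 0.05, a bar at each list's median and a dashed line at the median of all genes tested, -0.03. The filled points all lie to the right, and the store-operated entry list is the only one with its median below the dashed line.

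Markers of fibre type moved in the same comparison. Of 7 tested slow-fibre markers 2 rose in ULU vs control, TNNT1 and TNNI1, and of 8 tested fast-fibre markers 4 rose, MYH2, TNNT3, ACTN3 and MYBPC2, where 1.99% of all genes were called higher. The edgeR fit on these 2 diets alone called 0 slow-fibre markers and 1 fast-fibre marker, MYBPC2, where it called 0.821% of all genes. DESeq2 called 5 and 3 slow-fibre markers with all libraries and with the 2 diets, and 4 fast-fibre markers in each. The same DESeq2 fits called 4.15% and 3.34% of all genes. In UL vs control edgeR called 0 of these markers, while at an unadjusted p under 0.05 all 7 slow-fibre and 4 of 8 fast-fibre markers were higher, where 5.84% of all genes were. DESeq2 called 1 slow-fibre marker in UL vs control, TNNT1, in each fit, where 0.595% and 0.591% of all genes were called. The row named MYH2 also spans MYH1 and MYH4, and MYH7 has no row, its position being covered by the row named MYH6, which rose as well, with a log2(fold change) of 1.11 ± 0.25 (SE) and an edgeR adjusted p of 0.0236. The summed level of the slow-fibre markers was 3233 to 7283 CPM in control, 5298 to 10224 in UL and 5573 to 12481 in ULU, and that of the fast-fibre markers 87454 to 152098, 111344 to 162865 and 124230.0 to 187827 CPM. No marker with a row was at 0 in all libraries. Among markers of smooth muscle, endothelium, adipocytes, leukocytes, fibroblasts and satellite cells, 0 genes were called in ULU vs control by edgeR or DESeq2. At an unadjusted p under 0.05, 1 of 4 leukocyte and 1 of 4 fibroblast markers were lower and 1 of 3 satellite cell markers was higher. No marker of the other cell types just named passed that limit, where 18.9% of all genes tested did. The summed levels of these lists ran from 116 to 229 CPM in control and 118 to 209 in ULU for smooth muscle, 70.0 to 114 and 72.3 to 123 for endothelium, 10.5 to 269 and 2.58 to 51.3 for adipocytes, 16.7 to 78.4 and 11.4 to 69.5 for leukocytes, 2619 to 5680.3 and 2228 to 5696 for fibroblasts, and 34.4 to 44.9 and 37.1 to 56.6 for satellite cells. The part of these cell types in the results was not tested.

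Some members varied together across piglets, which is given as a description over 17 libraries that share diet, tissue and scaling. After the mean of each diet was taken away from the log2 CPM values, Pearson's r was 0.79 between SLN and TRDN, 0.72 between CASQ1 and TRDN and 0.71 between CASQ1 and SLN. ATP2A1 followed STIM1 (0.54) and CACNA1S (0.53), and had low values with TRDN (0.12) and SLN (0.17). RCAN1 ran against JPH1 (-0.60) and ATP2A2 (-0.54), and CASQ2 against TRDN (-0.65) and CASQ1 (-0.60).

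**Figure D5:**
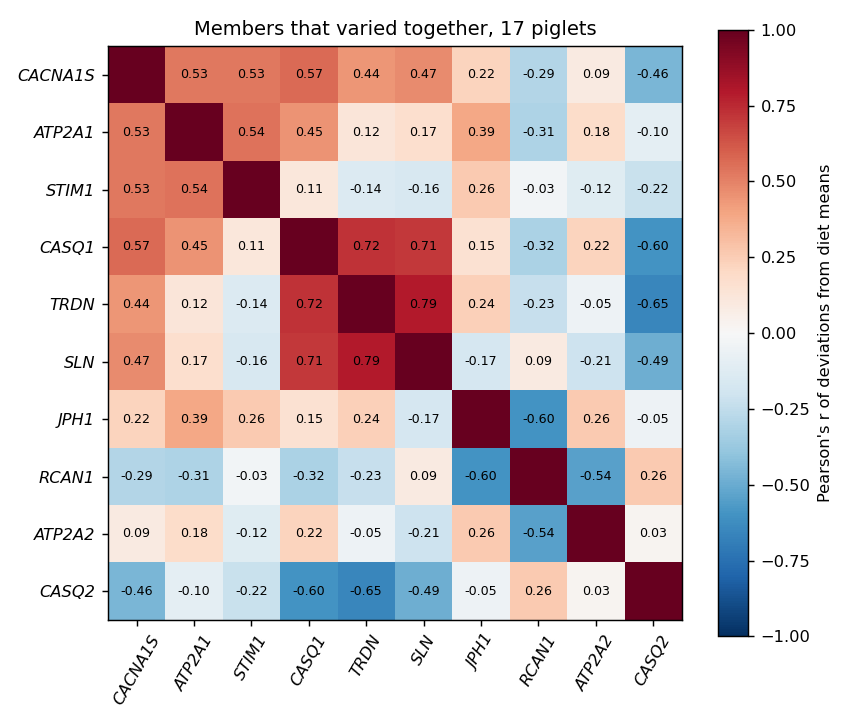
Pearson's r between the 8 measured members, ATP2A2 and CASQ2 over 17 piglets, computed on log2 CPM after the mean of each diet was subtracted, from -1 in blue to 1 in red. CASQ1, TRDN and SLN form a block with r of 0.71 to 0.79, and RCAN1 and CASQ2 hold most of the negative values.

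The named genes whose log2 CPM was most like each member over the 17 piglets differed from member to member, with r given without the diet means taken away. ATP2A1 was most like SRL (0.92) and CAMTA2 (0.92), and STIM1 most like SCN4A (0.88) and EXOC3 (0.83). CASQ1 was most like the glycolytic genes PGK1 (0.94) and LDHA (0.90), and TRDN most like PGAM2 (0.93), the muscle phosphoglycerate mutase, and PLPP7 (0.91). CACNA1S was most like MAN2A2 (0.87) and SOX6 (0.87), and SLN most like SCNM1 (0.84) and POLR1D (0.83). JPH1 was most like CEP85L (0.90) and SYNCRIP (0.85), and RCAN1 most like CD83 (0.85) and TNFAIP3 (0.79).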

How the data were processed

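The data are RNA-seq libraries of muscle from 17 piglets, with single-end reads of 75 nt. The authors trimmed reads with fastp and aligned them with HISAT2. They deposited raw counts per gene, not normalized, whose header names featureCounts 2.0.1 and the Ensembl annotation 104 of Sscrofa11.1. The study's methods and the submitters' processing notes name Subread 1.5.1 and DESeq2 1.34.0. No option for strand, for reads at several sites or for reads on overlapping genes was set, so overlapping genes on opposite strands cannot be told apart. A deposited column of mean counts and the exon length per gene were used only as a check (largest difference from the mean of the columns 0.471 reads) and to express levels per kb.

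Gene symbols were matched by Ensembl identifier (15029 genes) or, for 1090 genes without one, by an overlap of at least 50% of both spans with a RefSeq gene of the same assembly. Counts were analysed in edgeR 4.0.16 (TMM factors, filterByExpr, quasi-likelihood F test, 1 model of all 17 libraries) in R 4.3.3, with Benjamini-Hochberg adjustment over the 14203 genes tested. Standard errors are the absolute log2(fold change) divided by the square root of F, and a prior count of 2 was added for log2 CPM. DESeq2 1.42.0 was an alternative. An adjusted p that DESeq2 gave as NA stayed out of the counts of calls. Such genes stayed in the base of the DESeq2 shares, which held every gene with a read. On counts simulated from these libraries with 200 genes changed, the tests gave the known direction for every changed gene they called.

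All 10 members, ATP2A2 and CASQ2 are named, with listed pathway genes that passed the test (at most 10 per comparison by size of change, which CAMK2B exceeds) and the 2 named genes most like each member. PPP3CB, PPP3CC, PPP3R1 and CAMK2D are named beside the called genes of their kind. The members and lists were chosen with earlier results of these data known. Piglets were taken as replicates, grouped by the labels. Alternatives covered the test, the libraries in the model, scaling, filters, the fold limit and each library left out. The proteomics of the study was not analysed here.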

Additional observations from a re-analysis of the deposited data

How the results depend on the processing

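Of the 41 single differences, only those of ATP2A1 and the 11 called pathway genes, in ULU vs control, had a call to lose. Across all 41 differences and their 943 values under other settings, 880 kept both direction and side of the threshold. The others were 41 that lost the call, 9 that gained it and 13 that changed sign. All 13 came from leaving out 1 piglet and were close to 0: over those fits SLN ran from -0.15 to 0.12 in UL vs control, with 0.01 without UL piglet 29, from -0.17 to 0.09 in ULU vs control and from -0.10 to 0.06 in ULU vs UL, with 0.01, 0.02 and 0.04 without UL piglet 31, ULU piglet 41 and ULU piglet 44. JPH1 ran from -0.08 to 0.20 in ULU vs control, TRDN from 0.00 to 0.21 in ULU vs UL, ATP2A2 from -0.21 to 0.04 in ULU vs UL, with 0.02 without UL piglet 29, and CASQ2 from -0.48 to 0.08 in ULU vs UL, with 0.01 without ULU piglet 41.

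DESeq2 on all 17 libraries and on the 2 diets compared called 153 and 148 genes in UL vs control (edgeR 0), 1067 and 826 in ULU vs control (edgeR 423) and 248 and 231 in ULU vs UL (edgeR 5), and 3 and 3 members in ULU vs control (CACNA1S, ATP2A1 and STIM1). edgeR on 2 diets called 111 genes in ULU vs control and 1 in ULU vs UL, and 0 members. With no filter there were 228 and 8 genes, with a filter of 1 CPM 8 genes in ULU vs UL, and with a log2(fold change) of at least 1 there were 59 and 2 genes and 0 members. RLE scaling and the filter of 1 CPM called 2 members in ULU vs control, ATP2A1 and STIM1. Leaving out each piglet gave 0 to 16 genes in UL vs control, 147 (without ULU piglet 43) to 799 (without control piglet 25) in ULU vs control and 1 to 7 in ULU vs UL. Members called in ULU vs control were 0 to 3, with 0 without control piglet 24, ULU piglet 43 or ULU piglet 44 and 3 without ULU piglet 42, and 0 in the other comparisons. The cause was not tested.

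The count of pathway genes called in ULU vs control was recomputed under settings chosen after seeing the data: it was 20 and 18 with DESeq2, 4 with edgeR on the 2 diets, 0 with a log2(fold change) of at least 1 and 6 to 16 with a piglet left out. Calls that were higher made up 66.7% of those in ULU vs control and 76.3% with no filter. No paired analysis was possible because the groups share no replicate number: piglets are numbered 21 to 26, 27 to 32 and 40 to 44.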

Other observations

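The span of RYR1 in RefSeq, chromosome 6 from 47339759 to 47458457 in Sscrofa11.1, holds 7 unnamed gene models of the counting annotation. Their mean counts per library were between 45.1 and 340.8 reads. The model with the most exonic bases there (5781) had between 144 and 622 reads in a library. Whether these models are parts of RYR1 was not tested, and they entered no comparison. The span of PLN, chromosome 1 from 43449354 to 43458925, lies within the gene model named CEP85L, which has 0 exonic bases there.

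Ratios per length between the fast-fibre and slow-fibre forms varied widely within each diet. ATP2A1 was between 14.2 and 25.1 times ATP2A2 in control and between 14.4 and 27.6 in ULU, with medians of 19.5 and 23.0, and 17.1 at the median of UL. CASQ1 was between 80.4 and 366 times CASQ2 in control, between 61.4 and 398 in UL and between 67.3 and 263 in ULU. TRDN was between 0.0802 and 0.146 times CASQ1 over the 17 piglets. JPH1 was between 4.34 and 9.97 times CACNA1S in control, between 3.37 and 8.62 in UL and between 3.96 and 5.38 in ULU. No test was run on these ratios.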
